A study of Mus musculus with 2 samples.

Results

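The set described here held 10 genes of the developing neuron, namely Gap43, Basp1, Marcks, Marcksl1, Stmn1, Stmn2, Sox11, Sox4, Cd24a and Nrgn. They were chosen by symbol, and each symbol matched 1 of the 55536 gene identifiers measured. The first 9 are genes of growth cones or of immature neurons, and Nrgn, a gene of mature dendrites, served as the common denominator. All 10 were present at 1 TPM or more in both libraries (TPM is the count divided by transcript length and scaled to a fixed total per library), and all 10 had the 10 counts needed to be tested.

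Total RNA was sequenced from the left side of the cerebral cortex of female B6CASTF1/J mice aged 14 days, the first-generation hybrid of a C57BL/6J and a CAST/EiJ parent. The labels give a single group with 2 biological replicates, each prepared from 300 ng RNA to which ERCC spike-ins were added, and no treatment, mutant or second age. A description common to both mentions 3 females. The tissue of replicate 2 is labelled as a female's and that of replicate 1 as several females', and both carry the same donor entry. Since the number of mice per library cannot be read from this, every p-value below compares these 2 libraries and not conditions or mice.

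As background, a growth cone is the motile tip of an extending axon, where membrane is added, actin is remodelled and microtubules advance. Gap43, Basp1, Marcks and Marcksl1 encode abundant proteins of the inner face of its membrane that bind calmodulin or phospholipids and are substrates of protein kinase C, and the stathmins Stmn1 and Stmn2 bind tubulin and destabilise microtubules. Sox11 and Sox4 are SoxC transcription factors of newly formed neurons, and Cd24a encodes a surface protein anchored by a lipid and carried by immature neurons. Nrgn encodes neurogranin, a calmodulin-binding protein of dendritic spines in forebrain neurons.

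Marcks and Marcksl1 share the basic effector domain that binds acidic phospholipids, actin and calmodulin. Their best-matching stretch of 24 codons was the ungapped pair with the highest summed score for amino acid similarity. It was read from the GENCODE M21 coding sequences, 5′ to 3′ on the coding strand, with capitals where both genes encode the same amino acid. It lies on GRCm38 at chr10:37136531-37136602 on the minus strand for Marcks and at chr4:129514888-129514959 on the plus strand for Marcksl1.
Marcks: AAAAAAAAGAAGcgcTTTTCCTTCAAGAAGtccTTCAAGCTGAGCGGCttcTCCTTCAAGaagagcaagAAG
Marcksl1: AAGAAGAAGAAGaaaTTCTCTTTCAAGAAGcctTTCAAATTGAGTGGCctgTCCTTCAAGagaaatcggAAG
Here 18 of 24 codons encoded the same amino acid and 52 of 72 bases were identical, 72.2%. Both stretches are runs of lysine codons around serine and phenylalanine codons.

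The highest-scoring stretch of the stathmins, chosen and marked in the same way, lies in their tubulin-binding region, at chr4:134472825-134472896 for Stmn1 and chr3:8554813-8554884 for Stmn2, both on the plus strand.
Stmn1: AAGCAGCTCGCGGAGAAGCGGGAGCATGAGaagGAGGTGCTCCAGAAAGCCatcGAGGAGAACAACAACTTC
Stmn2: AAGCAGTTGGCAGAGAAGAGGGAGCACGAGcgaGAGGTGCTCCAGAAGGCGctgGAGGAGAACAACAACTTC
The stathmins matched at 22 of 24 codons and at 60 of 72 bases, 83.3%. The highest-scoring stretch of the SoxC factors lies near the end of the coding sequence, at chr12:27341254-27341325 for Sox11 and chr13:28951732-28951803 for Sox4, both on the minus strand.
Sox11: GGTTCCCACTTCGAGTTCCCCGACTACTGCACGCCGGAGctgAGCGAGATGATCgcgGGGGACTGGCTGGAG
Sox4: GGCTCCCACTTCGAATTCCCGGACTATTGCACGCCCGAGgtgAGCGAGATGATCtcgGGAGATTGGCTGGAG
Sox11 and Sox4 matched at 22 of 24 codons and at 63 of 72 bases, 87.5%. By bases the SoxC factors were thus the most alike of these 3 pairs over the stretches shown, and Marcks and Marcksl1 the least. The score weighs amino acids unequally, so a stretch with more matching codons may lie elsewhere in a pair.

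The summed expected counts of all genes were 32.0M for replicate 2 and 33.4M for replicate 1, and spike-ins took 0.361% and 0.359% of all counts. Nuclear protein-coding genes held 48.8% of all TPM in replicate 2 and 48.3% in replicate 1. Markers of cortical excitatory neurons fitted the tissue label, with all 5 detected and a summed level of 1730 and 1816 TPM in replicates 2 and 1, with Camk2a the most abundant (865 and 916 TPM). All 7 markers of striatal neurons were also detected, with sums of 179 TPM for replicate 2 and 287 TPM for replicate 1, and no marker of any list was at 0 counts. In whole tissue, fewer cells of a type and less RNA per cell cannot be told apart.

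Levels of the 10 genes lay in 3 tiers. Nrgn stood alone at 1277 and 1413 TPM, the 6 growth cone membrane and stathmin genes lay between 117 and 580 TPM, and the SoxC factors and Cd24a lay between 6.08 and 20.7 TPM. The first 9 genes together reached 2331 TPM in replicate 2 and 2190 TPM in replicate 1. These levels are a description of 1 group and carry no test, and with 2 libraries an exact permutation test cannot go below p = 0.5.

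**Figure D1:**
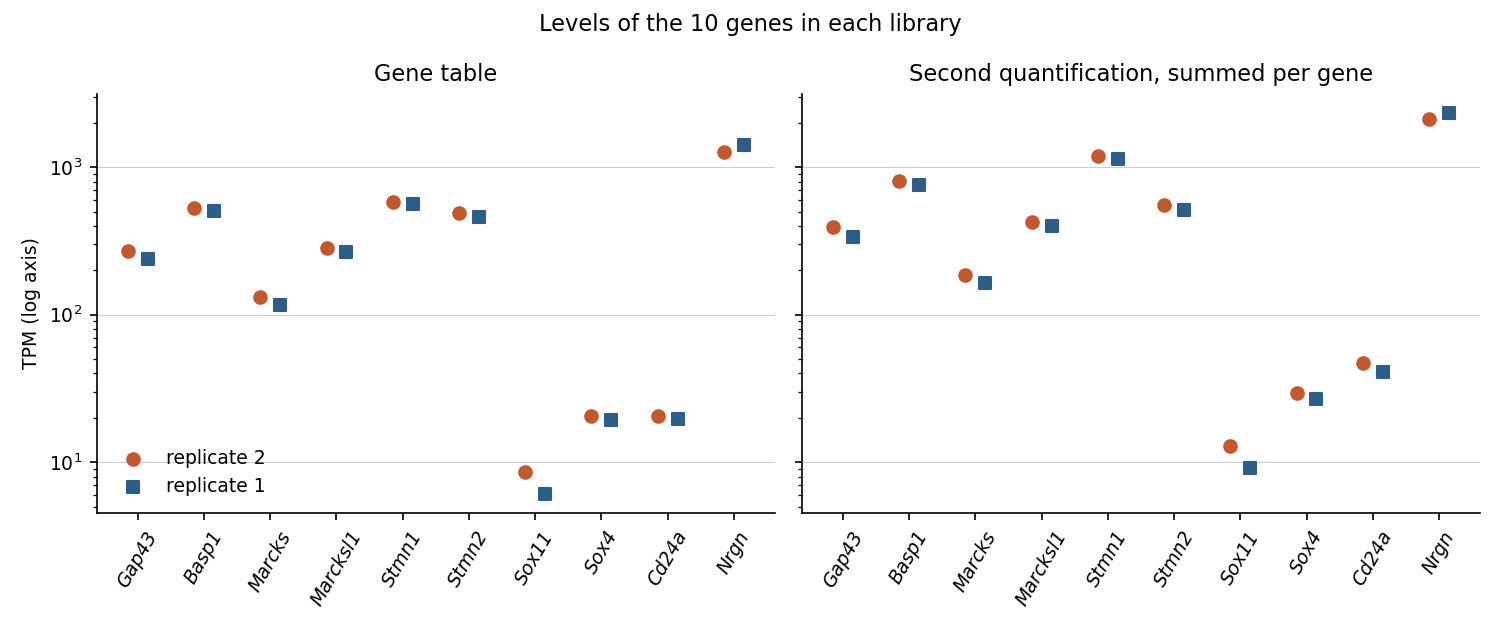
TPM of each gene on a log axis in replicate 2 (circles) and replicate 1 (squares), from the deposited gene table on the left and from the second quantification, summed per gene, on the right. Nrgn is the highest of the 10 in both panels at 1277 and 1413 TPM on the left, and Sox11 the lowest at 8.56 and 6.08 TPM.

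Among the growth cone membrane genes, Basp1 was the highest. This gene (chr15:25363277-25413764), which encodes a myristoylated protein of the axonal membrane, had 526 TPM in replicate 2 and 503 TPM in replicate 1, a mean of 515 ± 16.2 TPM (SD, n = 2). Marcksl1 (chr4:129513581-129515985), an actin-regulating relative of Marcks, had 283 and 265 TPM, a mean of 274 ± 12.6. Gap43 (chr16:42248442-42340651), the classic growth cone protein of axon growth and regeneration, had 269 and 239 TPM, a mean of 254 ± 21.8. Marcksl1 and Gap43 overlapped, since the lower library of Marcksl1 lay below the higher library of Gap43, and their order is not separated in this table. Marcks (chr10:37133375-37138920), which cross-links actin at the membrane, was the lowest of the 4 at 132 and 117 TPM, a mean of 124 ± 10.4. Per unit of transcript length, Marcks therefore lay below Marcksl1 by a TPM ratio of 0.465 in replicate 2 and 0.440 in replicate 1, although its 10676 and 9899 counts exceeded the 8764 and 8578 counts of Marcksl1. The difference between counts and TPM goes with the lengths of the transcripts, 4048 bases for Marcks-201 and 1605 for Marcksl1-201.

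Of the stathmins, Stmn1 (chr4:134468320-134473843), expressed widely in dividing and young cells, was the highest gene of the set after Nrgn. It had 580 TPM in replicate 2 and 559 TPM in replicate 1, a mean of 570 ± 14.9 (SD, n = 2). Stmn2 (chr3:8509360-8561606), the membrane-anchored stathmin of neurons known as SCG10, had 490 and 462 TPM, a mean of 476 ± 20.1. The stathmins did not overlap each other, and Basp1 lay between them without overlapping either. Among nuclear protein-coding genes, of which 22015 were ranked, Stmn1 stood at rank 49 in replicate 2 and rank 63 in replicate 1, Basp1 at 63 and 66, and Stmn2 at 68 and 81. The other stathmins are neuronal as well, and Stmn3 had 414 and 403 TPM while Stmn4 had 174 and 188 TPM.

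The SoxC factors were far lower. Sox4 (chr13:28948919-28953713) had 20.7 TPM in replicate 2 and 19.2 in replicate 1, an SD of 1.08 (n = 2). Sox11 (chr12:27334264-27342574) had 8.56 and 6.08 TPM, a mean of 7.32 ± 1.75. Sox11 was below Sox4 in both libraries, at 0.413 of its TPM in replicate 2 and 0.317 in replicate 1, and the third SoxC gene Sox12 lay between them at 10.4 and 9.40 TPM. Cd24a (chr10:43578284-43584265) had 20.7 and 19.6 TPM, a mean of 20.1 ± 0.827, and overlapped Sox4, so that these neighbours were not separated in the gene table. Sox11 rested on 1445 counts in replicate 2 and 1072 in replicate 1, and Cd24a on 726.0 and 705.0, the lowest counts of the set.

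Nrgn (chr9:37544492-37552904) had 1277 TPM in replicate 2 and 1413 TPM in replicate 1, a mean of 1345 ± 95.8 (SD, n = 2). It ranked 4 among nuclear protein-coding genes in replicate 2 and 2 in replicate 1. Its small relative Pcp4, which also carries an IQ motif, had 284 and 352 TPM. Calmodulin, the partner that neurogranin and Gap43 bind, is encoded among others by Calm2, with 1127 and 1191 TPM, and Calm3, with 988 and 1018 TPM. Of the protein kinase C genes, whose products phosphorylate neurogranin and Gap43, Prkcb had 423 and 495 TPM and Prkce 128 and 126 TPM.

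The second quantification, made by the authors from the reads, gave the same order of means over the 10 genes but other values. Nrgn had 2132 TPM in replicate 2 and 2347 TPM in replicate 1 there, Basp1 808 and 760 TPM, Marcksl1 428 and 399 TPM, Gap43 392 and 339 TPM, and Marcks 185 and 164 TPM. Stmn1 had 1198 and 1136 TPM and Cd24a 47.1 and 41.1 TPM, while Stmn2 had 553 and 512 TPM, Sox4 29.6 and 26.7 TPM, and Sox11 12.8 and 9.10 TPM. In that table Marcksl1 and Gap43 no longer overlapped, and neither did Cd24a and Sox4. The TPM totals of the tables are spread over different rows, and rescaled to the same total over nuclear protein-coding genes Nrgn had 2618 TPM in replicate 2 and 2925 in replicate 1 from the gene table against 2749 and 3081 from the second. On this common scale Stmn1 still moved, with 1190 and 1158 in the gene table and 1545 and 1491 in the second, and so did Stmn2, with 1005 and 956 against 713 and 671. Cd24a moved as well on it, with 42.5 and 40.5 in the gene table and 60.8 and 53.9 in the second.

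Those 3 genes were also the ones whose reads the 2 transcript tables divided most differently. The 10 genes have 22 annotated transcripts, and in the first table the longest coding isoform took at least 97.0% of the gene's TPM in every gene but Stmn2. For Stmn2, the coding transcript Stmn2-201 of 2073 bases held 72.5% of TPM in replicate 2 and 71.8% in replicate 1, and the processed transcript Stmn2-203 of 308 bases held 27.2% and 27.9%. That short transcript received 572 and 577 counts, only 3.79% and 3.93% of the gene's counts, and the second table listed it at 0 in both libraries. Left out, a choice made after seeing the data, Stmn2 had a mean level of 345 TPM, which is above the 274 TPM of Marcksl1 and leaves the order of the set as it was. For Stmn1, the isoform Stmn1-203 of 967 bases held 0.900% and 0.690% in the first table and 26.9% and 27.0% in the second. Cd24a-202 of 743 bases was at 0 in the first table and held 38.5% and 31.5% of Cd24a in the second. In each of these genes the libraries lay closer to each other than the tables did, and both tables rest on the same reads.

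**Figure D2:**
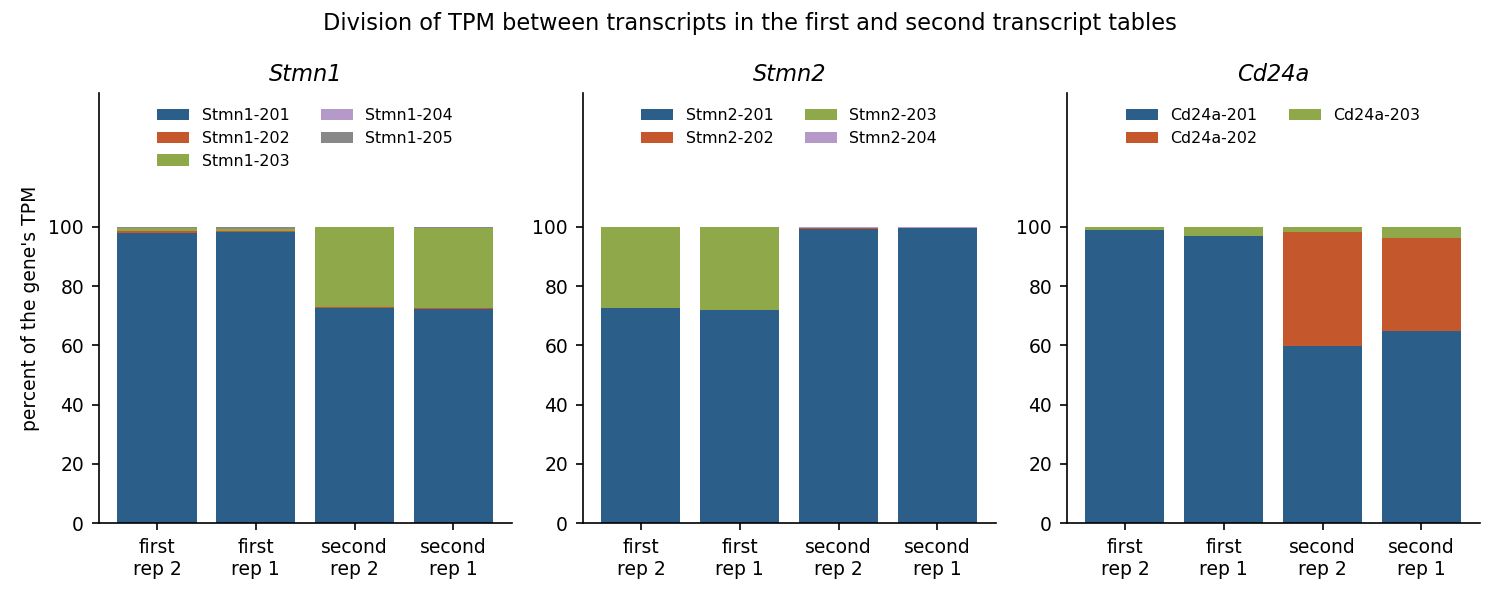
Percent of the gene's TPM given to each annotated transcript of Stmn1, Stmn2 and Cd24a, stacked to 100, in replicate 2 and replicate 1 of the first and second transcript tables. Stmn2-203 fills 27.2% and 27.9% of Stmn2 in the first table and nothing in the second, while Stmn1-203 and Cd24a-202 are large in the second table alone.

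Some counts could belong to copies of a gene. The processed pseudogene Gm11223 on chromosome 4 matched the coding sequence of Stmn1, stop codon included, at all but 1 of 450 bases, and the single difference is A274G, with the Stmn1 base first and positions counted from the first base of the start codon. The stretch around it is shown with that base in capitals.
Stmn1: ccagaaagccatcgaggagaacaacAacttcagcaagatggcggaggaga
Gm11223: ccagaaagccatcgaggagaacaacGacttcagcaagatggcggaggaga
Gm11223 received 77.1 counts in replicate 2 and 84.4 in replicate 1 in the gene table and 0 in the second, beside 11402 and 11485 counts of Stmn1. Gm6212 and Gm15352, processed pseudogenes that match Cd24a at 96.8% and 92.3% identity, each held 1 count in replicate 2 and 2 in replicate 1 in the gene table. Akr1c19 carries a transcript that matches 1061 bases of Marcksl1 at 91.2% identity and whose counts were 1 and 1.04 in the gene table and 20 and 12 in the second. The antisense gene Gm26735 overlaps 2616 bases of Sox4 and held 10 counts in replicate 2 and 9 in replicate 1. Whether the counting used strand is not stated, so reads of Sox4 and Gm26735 may be mixed.

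Set against Nrgn within each library, each of the other 9 genes was lower. Stmn1 came closest, at 45.4% of Nrgn TPM in replicate 2 and 39.6% in replicate 1. Basp1 followed at 41.2% and 35.6%, and Stmn2 at 38.4% and 32.7%. These 3 genes thus lay 2.20-fold to 3.06-fold below Nrgn. Marcksl1 was at 22.2% and 18.8% of Nrgn, Gap43 at 21.1% and 16.9%, and Marcks at 10.3% and 8.27%. As a log2 ratio of (TPM + 0.1), Gap43 over Nrgn averaged -2.40 ± 0.23 (SD, n = 2), which is 4.74-fold below Nrgn in replicate 2 and 5.92-fold in replicate 1. Sox4 and Cd24a each stood at 1.62% in replicate 2, and at 1.36% and 1.38% in replicate 1. Sox11 stood at 0.670% and 0.430%, with a mean log2 ratio of -7.52 ± 0.45, so that the SoxC factors and Cd24a were 61.6-fold to 232-fold below Nrgn.

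Each of the 9 percentages was higher in replicate 2 than in replicate 1, in both quantifications, which rest on the same reads. All 9 share the Nrgn denominator, which was lower in replicate 2. By counts, 47.3% of all genes tested were called higher relative to Nrgn, and 77.7% of those with as many counts as the lowest of the set. The median log2 change relative to Nrgn was 0.21 over all genes tested. The second quantification placed Stmn1 at 56.2% and 48.4% of Nrgn and Stmn2 at 25.9% and 21.8%, on either side of the gene table. For Gap43 it gave 18.4% and 14.4%, for Basp1 37.9% and 32.4%, and for Sox11 0.602% and 0.388%. Ratios that do not involve Nrgn varied less between the libraries for some pairs, such as Gap43 over Marcks, with a TPM ratio of 2.05 in replicate 2 and 2.04 in replicate 1, and Basp1 over Stmn1, at 0.907 and 0.900. Gap43 over Basp1 was 0.512 and 0.474.

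**Figure D3:**
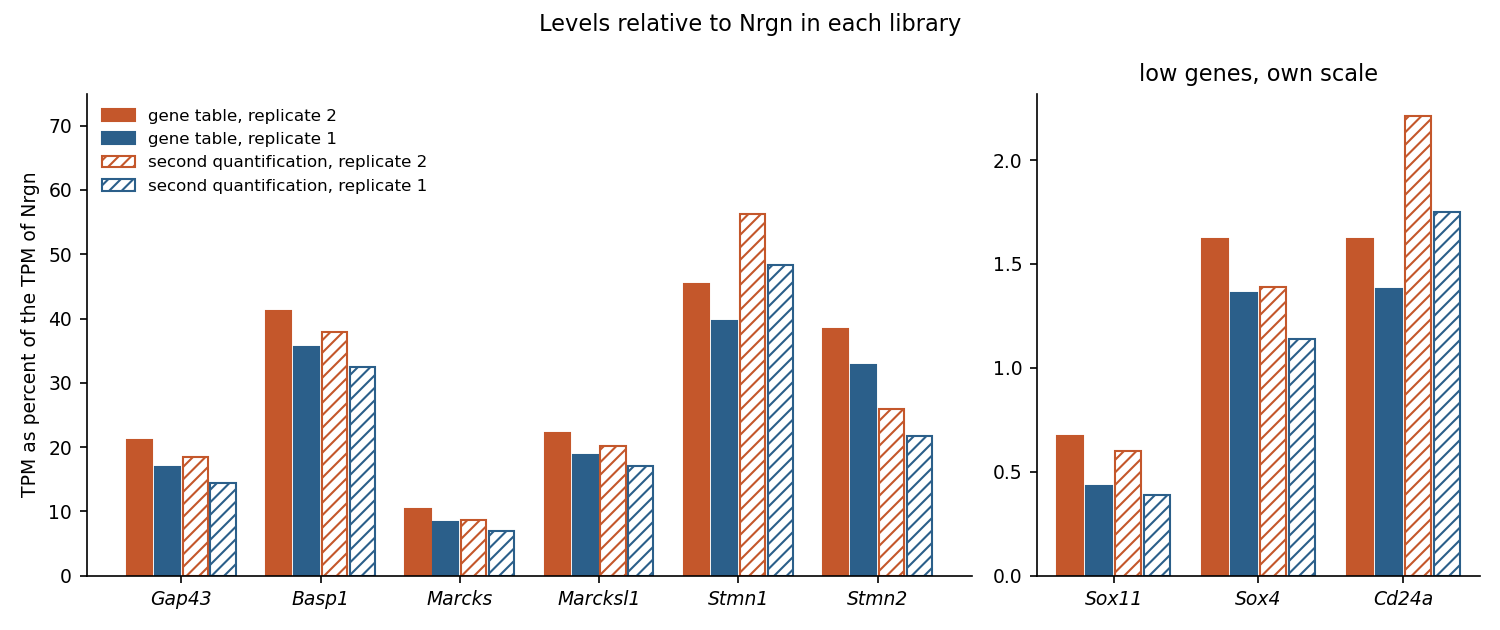
TPM of the 9 genes as percent of the TPM of Nrgn, replicate 2 left of replicate 1, with filled bars for the gene table and hatched bars for the second quantification, and the 3 low genes on a scale of their own. Each replicate 2 bar is taller than the replicate 1 bar beside it, and Stmn1 reaches 45.4% and 39.6% in the gene table. All bars share the Nrgn denominator, and by counts the median log2 change relative to Nrgn over all genes tested was 0.21.

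The libraries were then compared gene by gene on expected counts. With an exact binomial test on counts scaled by the TMM method and Benjamini-Hochberg adjustment, 3 of the 10 genes, Sox11, Gap43 and Marcks, were higher in replicate 2, beside 8.88% of the 18887 genes tested. Nrgn was lower in replicate 2, beside 11.4% of those genes. The median log2 difference of the 9 genes other than Nrgn was 0.04, with a range of -0.01 to 0.43, and that of all genes tested was 0.00, with 90% between -0.35 and 0.45. Among the 6809 genes with at least as many counts in both libraries as the lowest of the set, 10.7% were called higher and 24.4% lower, the median was -0.03 and 90% lay between -0.21 and 0.20. Sox11, at 0.43, lay outside that range and Nrgn, at -0.21, at its lower edge. This test takes counting error alone, while the coefficient of variation between the libraries beyond counting error, estimated over all genes, was 0.0883. A dispersion is the square of such a coefficient, and the value of 0.01 assumed next lies slightly above the square of 0.0883. With an assumed dispersion of 0.01 in edgeR's exact test none of the 10 genes was called, and Sox11 was the 1 gene of the 10 with an unadjusted p under 0.05.

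Sox11 differed most. It had 44.2 CPM (counts scaled to library size) in replicate 2 and 32.8 in replicate 1, a log2 difference of 0.43 ± 0.058 (counting SE) or 1.34-fold, with an adjusted p of 3.7e-12 in the exact binomial test. Its closest relative Sox4 had 61.2 and 59.2 CPM, a log2 difference of 0.05 ± 0.046 and an adjusted p of 0.525 in that exact test. Cd24a had 22.2 and 21.6 CPM, a log2 difference of 0.04 ± 0.076 and an adjusted p of 0.778. For Sox4 and Cd24a the difference was thus about the size of its counting error or smaller.

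Gap43 had 224 CPM in replicate 2 and 207 in replicate 1, a log2 difference of 0.11 ± 0.024, 1.08-fold, with an exact adjusted p of 4.29e-05. Marcks had 327 and 303 CPM, likewise 0.11 ± 0.02 and 1.08-fold, with an exact adjusted p of 9.34e-07. Marcksl1 had 268 and 262 CPM, a difference of 0.03 ± 0.022 that did not pass, at an adjusted p of 0.341. Basp1 had 18955 counts in replicate 2 and 18954 in replicate 1, a scaled difference of 0.00 ± 0.015 that was -0.01 in the second quantification. Of the 4 growth cone membrane genes 2 were thus called with TMM scaling, and which of them passed depended on the scaling. With total counts Marcksl1 (0.09, exact adjusted p 0.000464) and Basp1 (0.06, exact adjusted p 0.000686) were called higher as well, and with spike-ins so were Marcksl1 (0.08) and Basp1 (0.05), while with an assumed dispersion of 0.01 the number called was 0 of 4.

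Stmn2 had 462 and 450 CPM, a log2 difference of 0.04 ± 0.017 with an exact adjusted p of 0.0931. Stmn1 had 349 and 351 CPM and a difference of -0.01 ± 0.019 that turned to 0.05 with scaling by total counts and to 0.04 with scaling by spike-ins. Neither stathmin passed with TMM scaling, but Stmn2 was called higher with total counts (0.10, exact adjusted p 1.94e-07) and with spike-ins (0.09, exact adjusted p 1.73e-06), and Stmn1 with total counts (exact adjusted p 0.0494). Nrgn had 1074 and 1244 CPM, a log2 difference of -0.21 ± 0.011 or 0.863-fold, with an exact adjusted p of 1.26e-88. Scaling by total counts raised the number of the 10 genes called higher to 7, and scaling by spike-ins raised it to 6. Over all 18887 genes, the 1678 called higher with TMM became 2733 and 2570. Nrgn stayed lower under both of these scalings. TPM, which is scaled to a total, was higher in replicate 2 for all 9 other genes, Basp1 and Stmn1 included. Scaling by total counts also moved the median log2 difference of all genes to 0.06, with 2733 called higher and 1145 lower. The share of all genes with a higher TPM in replicate 2 was not counted.

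The change of a gene's ratio to Nrgn between the libraries needs no scaling. By Fisher's exact test on the counts of the gene and of Nrgn, all 9 genes were higher relative to Nrgn in replicate 2 and none lower. Of the 18886 genes tested, 47.3% were higher and 1.75% lower, and of those with at least as many counts as the lowest of the set 77.7% were higher and 1.76% lower. All of these comparisons share the Nrgn counts, and the median change relative to Nrgn was 0.21 over all genes and 0.18 over those with as many counts. Sox11 had the largest change at 0.64 ± 0.059, 1.56-fold, with a Fisher's exact adjusted p of 3.65e-26, and it lay above the 95th percentile of 0.41 among genes with as many counts. Gap43 changed by 0.33 ± 0.027, 1.25-fold, with an exact adjusted p of 6.9e-33, and Marcks by 0.32 ± 0.023. Stmn1, at 0.20 ± 0.022, and Basp1, at 0.21 ± 0.018, had changes close to the median of all genes. Marcksl1, Stmn2, Sox4 and Cd24a lay between 0.24 and 0.26. With an assumed dispersion of 0.01 none of the 9 passed a z test, and only Sox11 among them had an unadjusted p under 0.05.

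**Figure D4:**
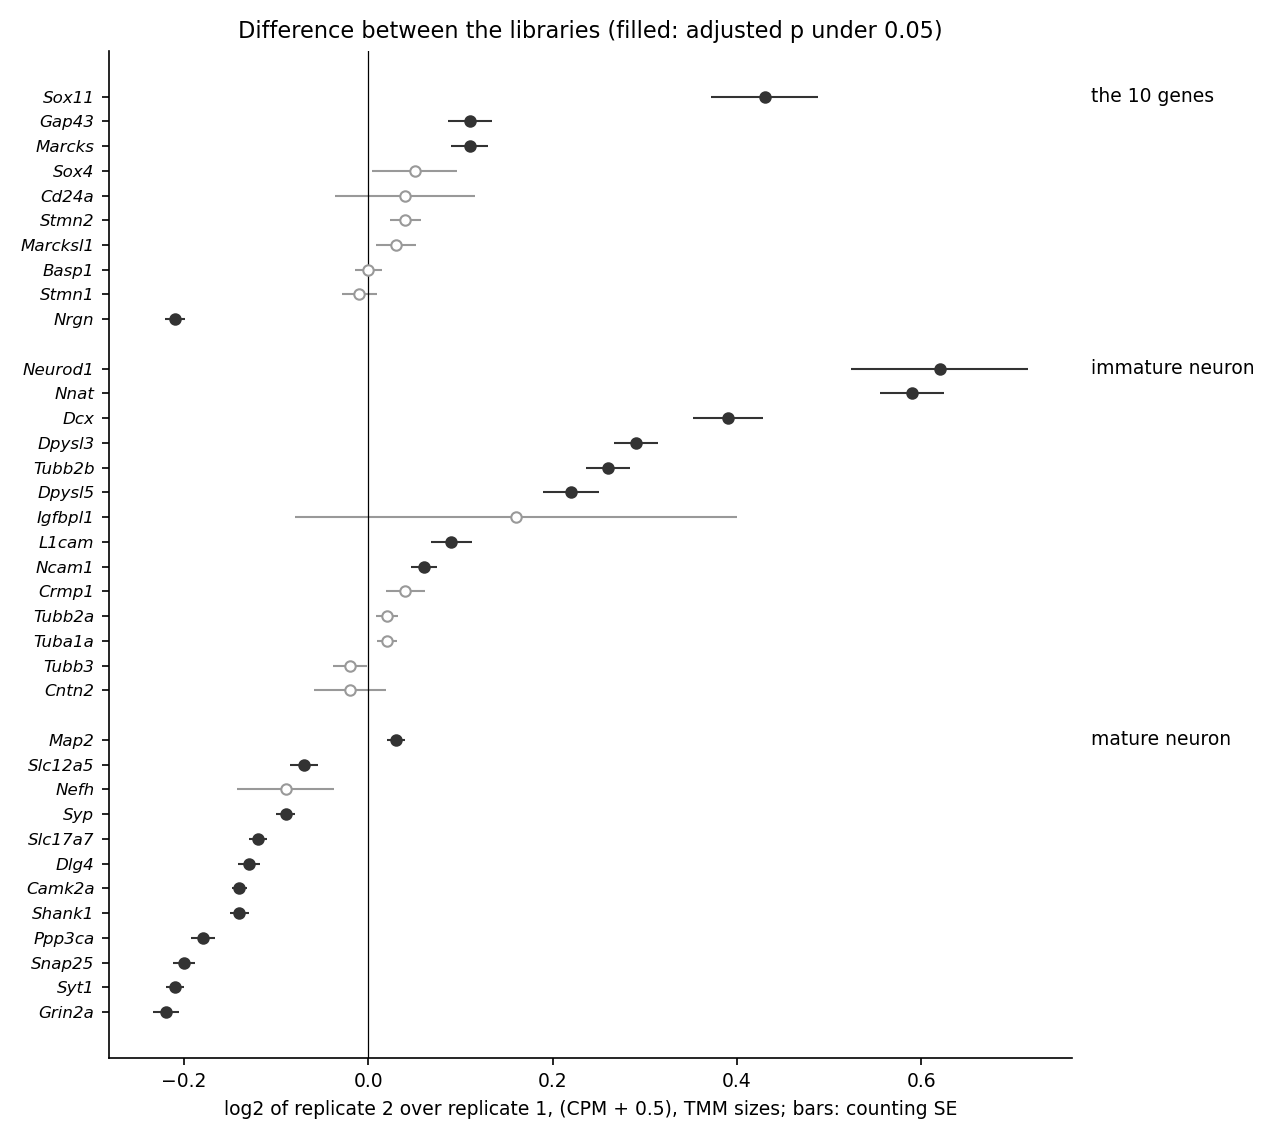
Log2 of (CPM + 0.5) in replicate 2 over replicate 1 with counting SE, for the 10 genes, 14 further genes of immature neurons and 12 genes of mature neurons, where filled points passed the exact binomial test at an adjusted p of 0.05. Sox11 at 0.43 and Nrgn at -0.21 are the extremes of the set, Stmn1 at -0.01 turns positive with scaling by total counts or spike-ins, and 11 of the 12 mature genes lie below 0.

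Further genes of young neurons were in part higher in replicate 2 as well. Of 14 further immature neuron genes, 8 were higher in replicate 2, none lower and 6 did not pass, with a median log2 difference of 0.13. This list and those below were chosen with earlier results of these data known, so their counts are a description. Of all genes tested 8.88% were higher, and of those with as many counts as the lowest of the 10 genes 10.7%, with medians of 0.00 and -0.03. The most abundant were the tubulins Tuba1a (1009 TPM in replicate 2, 953 in replicate 1), Tubb2a (947 and 898 TPM) and Tubb3 (335 and 326 TPM), of which none passed. Neurod1, a transcription factor of young excitatory neurons, was 1.54-fold higher, with 10.6 and 6.50 TPM and an exact adjusted p of 5.95e-10. Nnat, which encodes the proteolipid neuronatin, was 1.51-fold higher, with 201 and 127 TPM and an exact adjusted p of 1.82e-64. Dcx, the microtubule protein doublecortin of migrating neurons, was singled out after its values were seen and had 26.4 and 19.2 TPM, a log2 difference of 0.39 ± 0.038. With an assumed dispersion of 0.01 none of the 14 was called.

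The growth cone machinery beyond the set, 12 genes of actin bundling, guidance receptors and their effectors, had 2 genes higher, 3 lower and a median of 0.00. These shares are near the 10.7% higher and 24.4% lower among all genes with as many counts as the lowest of the 10 genes. Its most abundant gene Dpysl2, which encodes the tubulin-binding protein CRMP2, had 334 and 325 TPM and did not pass. The actin bundler Fscn1 was lower in replicate 2 by counts, with a log2 difference of -0.11 ± 0.021 at 203 and 201 TPM. Drebrin, encoded by Dbn1, was higher by 0.14 ± 0.024 at 154 and 128 TPM. With scaling by total counts 6 of the 12 were higher and 0 lower, and with scaling by spike-ins 4 were higher and 1 lower, beside 2733 higher and 1145 lower, and 2570 higher and 1229 lower, of all 18887 genes.

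Nrgn differed in the direction of most mature neuron genes. Of 12 such genes, 10 were lower in replicate 2, 1 was higher (Map2, by 0.03) and Nefh did not pass, with a median log2 difference of -0.14 and a range of -0.22 to 0.03. Of all genes tested 11.4% were lower, and of those with as many counts as the lowest of the 10 genes 24.4%, with a median of -0.03. Syp, a synaptic vesicle protein, had 1109 and 1123 TPM and differed by -0.09 ± 0.01. Camk2a, the kinase of excitatory synapses, had 865 and 916 TPM and differed by -0.14 ± 0.0079, and Snap25, of the vesicle fusion machinery, had 775 and 843 TPM and differed by -0.20 ± 0.012. The difference of Nrgn, -0.21, lay within the range of this list, of which 0 genes were called with an assumed dispersion of 0.01. Calm2 and Calm3 were lower as well, by log2 differences of -0.14 ± 0.012 and -0.10 ± 0.0095. Prkcb, at -0.29 ± 0.015, and Pcp4, at -0.37 ± 0.034, differed more than Nrgn. Of the near relatives Stmn4 was lower as well, by a log2 difference of -0.16 ± 0.031, while Stmn3 and Sox12 did not pass.

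Markers of several other cell types differed between the libraries together with these genes. The 5 markers of myelinating oligodendrocytes were all lower in replicate 2, at a summed 679 TPM against 1230 TPM in replicate 1 and a median log2 difference of -0.94. All 7 striatal markers were lower, with a median of -0.77, and 4 of 5 deep layer and subplate markers were lower, with a median of -0.30. Lower too were 3 of 3 markers of committed oligodendrocytes, with a median of -0.40, 3 of 5 upper layer markers, with a median of -0.08, and 4 of 5 markers of cortical excitatory neurons, with a median of -0.14. With scaling by total counts or spike-ins, 2 upper layer markers were higher and 1 lower. The cortical excitatory list shares Camk2a and Slc17a7 with the mature neuron list. In the other direction, 6 of 7 choroid plexus markers were higher, with sums of 138 TPM for replicate 2 and 12.4 TPM for replicate 1, mostly Ttr at 131 and 9.86 TPM, and all 5 erythroid markers were higher, at 1264 and 846 TPM. Of all genes tested, 11.4% were lower and 8.88% higher. Among genes with as many counts as the lowest of the 10 genes, 24.4% were lower and 10.7% higher, with a median of -0.03. With an assumed dispersion of 0.01, 5 myelinating oligodendrocyte, 4 striatal and 3 choroid plexus markers were still called and 0 of the other lists just named. These lists moved with Sox11, Gap43, Marcks and Nrgn across the same 2 libraries, and their part in those differences was not tested. Markers of dividing cells, in which Stmn1 is also expressed, were low, with sums of 7.85 TPM for replicate 2 and 7.50 TPM for replicate 1 and none of 6 called. The genes listed for subventricular and olfactory neuroblasts, cells that express Sox11, Sox4 and Cd24a, summed to 26.4 and 29.4 TPM, with a median log2 difference of -0.01. Dlx1 was the highest of them, at 11.5 and 12.2 TPM, and which cells of the tissue gave this signal was not tested. Of these 6 genes none was higher and Dlx6 was lower, at 5.12 and 9.25 TPM. With total counts, spike-ins or no filter on counts, 0 of the 6 were lower. The 5 markers of oligodendrocyte precursors, which express SoxC factors as well, summed to 129 and 144 TPM, and 4 of them were lower in replicate 2. Ependymal markers, of cells that carry Cd24a, were low, with 2 of 6 detected. Of the 4 tested, 1, Rsph1, was called higher in replicate 2 at 8.32 and 5.53 TPM. The other 3 had negative log2 differences and were not called, and the median of the 4 was -0.21.

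The genes of the set differ in how their transcripts are built, which the choice of genes did not use. Sox11 and Sox4 each have a single exon, with coding sequences of 1185 and 1320 bases in transcripts of 8311 and 4795 bases. At the other extreme Nrgn and Cd24a have the shortest coding sequences of the set, 234 and 228 bases, which fill 16.1% of Nrgn-201 and 12.6% of Cd24a-201. Gap43 has the largest coding share, 48.0%. The coding sequences of Marcks and Basp1 were the richest in G and C, at 75.6% and 74.5%, and those of Stmn2 and Stmn1 the poorest, at 51.6% and 53.7%. These features are given as a description, and no relation of them to the levels was tested.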

How the data were processed

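Per the README text of each sample, the authors quantified each library on assembly mm10 with GENCODE M21, once from a transcriptome alignment (a gene and a transcript table) and once from the reads (a second transcript table, summed here per gene). Tools, versions and strand setting were not given in the sources used here. Reads of the CAST/EiJ allele were thus quantified on a reference of the other parent, and the effect on these genes was not tested. Expected counts in the deposited tables are estimated reads, not normalised, per the file headers. TPM values were scaled by the authors to one total that also covers the spike-ins. The percent of a gene's TPM given to each transcript was deposited by the authors in the first transcript table.

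A further 26248 numbered rows, 96 ERCC rows and 1 other row were left out of gene totals. Expected counts were rounded, and genes reaching 10 counts in either library were tested by a two-sided exact binomial test with an expected share of 0.500 for replicate 2 from edgeR 4.0.16 TMM sizes (R 4.3.3), adjusted by Benjamini-Hochberg over all genes tested at 0.05. Log2 differences used (CPM + 0.5) and carry counting SEs. Ratios to Nrgn used (TPM + 0.1), and their change was tested two-sided by Fisher's exact test on counts. Both tests were tested against SciPy 1.17.1 and on data simulated with counting error alone, which is what they assume. The simulation therefore does not cover variation between libraries beyond counting error. Alternatives covered scaling (total counts, spike-ins, DESeq2 1.42.0 size factors), filters, the quantification, pseudocounts and an assumed dispersion of 0.01. Copies were sought with BLAST+ 2.17.0. The members and all gene lists were chosen with earlier results of these data known. All 10 genes are named. Of each other list, the 3 highest genes and those called with a 1.5-fold difference or more were to be named where the text uses the list, and for the marker lists mostly sums and counts are given. A few items that this rule would name are not reported here.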

Additional observations from a re-analysis of the deposited data

How the results depend on the processing

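The number of the 10 genes called higher in replicate 2 was 3, and it was 7 with scaling by total gene counts, 6 with scaling by ERCC spike-ins and 0 with an assumed dispersion of 0.01 in edgeR's exact test, where 1 gene, Sox11, had an unadjusted p under 0.05. It was 3 under each of the other alternatives, DESeq2 size factors, both filters and the second quantification. Nrgn, the 1 gene called lower, was not called with that dispersion (0 genes lower). Over all genes, the 1678 called higher became 2733 with total counts, 2570 with spike-ins and 100 with the dispersion, and the 2152 called lower became 1145, 1229 and 82. Total counts and spike-ins moved the median log2 difference of all genes by 0.06 and 0.05. The 9 genes called higher relative to Nrgn became 0 with the dispersion and were 9 under both filters and the second quantification. With 2 libraries, whether a dispersion of 0.01 is right for these genes was not tested, nor was the cause of the shifts with scaling.

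In sign, Basp1 went to -0.01 in the second quantification, and Stmn1 to 0.05 (adjusted p 0.0494) with total counts and 0.04 (adjusted p 0.105) with spike-ins; the log2 differences of Sox11, Gap43, Marcks and Nrgn kept their sign under every alternative, though none of these was called with the dispersion. All 9 genes stayed below Nrgn under every pseudocount, with either library alone, by counts without length and in the second quantification, where the mean log2 ratio of Stmn1 was -0.94 in place of -1.24 and that of Stmn2 -2.07 in place of -1.50. Without Stmn2-203, it was -1.96. No paired analysis was possible because both libraries belong to 1 group. Depth did not limit detection of the 10 genes, each with 705 counts or more, and the number of libraries limits every comparison.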
